A study of Mus musculus with 4 samples.

Results

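Wnt ligands, Frizzled receptors and the secreted inhibitors of the Sfrp and Dkk families were followed in mouse astrocyte-enriched cultures (AECs) after oxygen-glucose deprivation (OGD). Members were all genes whose symbol on the array was Wnt, Fzd, Sfrp or Dkk followed by a number, with or without the letter a or b for the ligands. This gave 37 of the 29676 gene names on the array, read by 44 probes. The members were 19 Wnt ligands, 10 Frizzled receptors and 8 secreted inhibitors, of which 30 had 1 probe and 7 had 2.

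AECs were mixed glial cultures from the cerebral cortex of newborn ICR mice, and both groups had been depleted of microglia with PLX3397, which blocks the receptor Csf1r on which these cells depend. In the paper's staining, cells of the oligodendrocyte lineage remained in such cultures. Per the methods, each culture pooled several pups, and wells held cells of separate cultures. One group was untreated (n = 2) and the other was kept in medium without glucose under hypoxia for 15 h (n = 2), an in vitro model of ischemia. Total RNA of each sample was labeled with the dye Cy3 and read on its own single-color array. The p-values below thus rest on no more than 2 arrays in each group. In those from limma, the spread of each probe was also pulled toward that of all tested probes.

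Wnt proteins are secreted, lipid-modified ligands that bind Frizzled receptors. With Lrp5 or Lrp6 as co-receptor, binding leads to accumulation of beta-catenin and to transcription through TCF/LEF factors, while other Frizzled complexes act on planar cell polarity and calcium without beta-catenin. Sfrp proteins bind Wnt ligands outside the cell, and most Dkk proteins block Lrp5 and Lrp6. In the brain, Wnt signals from glia and neural progenitors are known for their part in growth of vessels and in the blood-brain barrier.

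Expression of 32 of the 37 members could be tested. Relative to the 75th percentile of each array, 15 members rose after OGD, 8 fell and 9 did not pass the test. *Wnt11*, *Wnt7b*, *Wnt10b*, *Wnt10a*, *Wnt2* and the receptor *Fzd3* rose by over 2-fold, of which *Wnt10a* passed the filter through the OGD arrays alone, and the receptors *Fzd10*, *Fzd6* and *Fzd2* fell by over 2-fold. The inhibitors rose by less than 2-fold or did not pass the test. A member was called where the adjusted p of limma was under 0.05. Among all 21061 genes tested, 37.1% were called higher and 27.8% lower, and 12.7% and 15.0% passed the 2-fold limit as well, so the shares of members called were not far from those of all genes. The median log2 fold change of the members was 0.26, beside 0.16 for all genes, and 0.38 over the 30 members well above background on at least 1 array of each group.

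These calls depended on the scale. At the 75th percentile the processed signal reached 2135 and 2164 in the untreated group and 887 and 776 in the OGD group, a log2 difference of -1.37, while the spiked-in control probes differed by -0.085. With arrays scaled on the spiked-in probes, the median of all genes moved by -1.29 to -1.13 and that of the members to -1.03, and the log2 fold change of every member and pathway gene below moved by the same -1.29. On that scale 3.84% of all genes were called higher and 83.3% lower. Among the members 5 were higher (*Wnt11*, *Wnt10a*, *Wnt7b*, *Wnt10b* and *Fzd3*) and 25 lower. Without *Wnt16* and *Wnt9b*, which passed the filter through the untreated arrays alone, 23 were lower. All 5 were also higher on the 75th-percentile scale, and 8 members were lower on both scales. Without untreated replicate 1 the members called fell to 10 higher and 4 lower, and without untreated replicate 2 to 9 higher and 4 lower. The lone untreated array was then assumed to vary like the OGD pair, whose log2 values differed between replicates with an SD of 0.40 over probes, against 0.22 for the untreated pair. The calls of *Wnt1*, *Wnt5a*, *Wnt5b*, *Wnt8b*, *Fzd5*, *Fzd7*, *Sfrp5* and *Dkk3* were lost without either untreated array, that of *Wnt9a* without replicate 1 and those of *Fzd9* and *Sfrp4* without replicate 2. The *Sfrp4* call was also lost without either OGD array, and those of *Wnt1*, *Fzd5* and *Sfrp5* without OGD replicate 2.

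The arrays shared 1 slide and 1 scan. Between 64.5% and 73.7% of spots were well above background and none was saturated. All 15 astrocyte markers were well above background on every array. Their summed level was 171 to 193 times the array's 75th percentile in untreated and 257 to 259 times in OGD cultures, with 7 called higher and 2 lower. Markers of other cells were present too. For the 12 tested of 13 microglial markers, *C1qa* not among them, the sums were 5.01 to 5.40 and 11.6 to 11.8 times (5 higher, 2 lower), and for 6 of 7 NG2 glia markers 19.3 to 19.9 and 37.3 to 38.1 times (3 higher, 1 lower). For 12 of 13 oligodendrocyte markers they were 36.3 to 38.8 and 43.8 to 45.6 times (4 higher, 3 lower), and for 9 of 11 neuronal markers, without *Slc17a7*, 29.5 to 31.5 and 32.2 to 35.3 times (5 higher, 2 lower). For 5 of 8 markers of pericytes and smooth muscle they were 129 to 148 and 246 to 263 times (4 higher, 0 lower). Of 8 endothelial markers *Cldn5*, *Tek*, *Tie1* and *Emcn* were not tested, and the other 4 were well above background on all arrays, with sums of 2.63 to 2.68 and 5.97 to 6.04 times (2 higher, 0 lower). For 10 of 11 markers of meningeal fibroblasts the sums were 35.3 to 40.4 and 34.0 to 34.9 times (2 higher, 4 lower), and for 6 of 7 of choroid plexus and ependyma 12.4 to 13.1 and 10.7 to 12.3 times (3 higher, 2 lower). These calls too turned with the scale. On the spike-in scale 2 of the 78 tested markers, 1 microglial and 1 neuronal, were higher and 63 lower, the latter including 12 astrocyte, 9 microglial and 6 NG2 glia markers. The part of other cells in the results below was not tested. In such bulk samples, fewer cells of a type and less RNA per cell cannot be told apart.

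**Figure D1:**
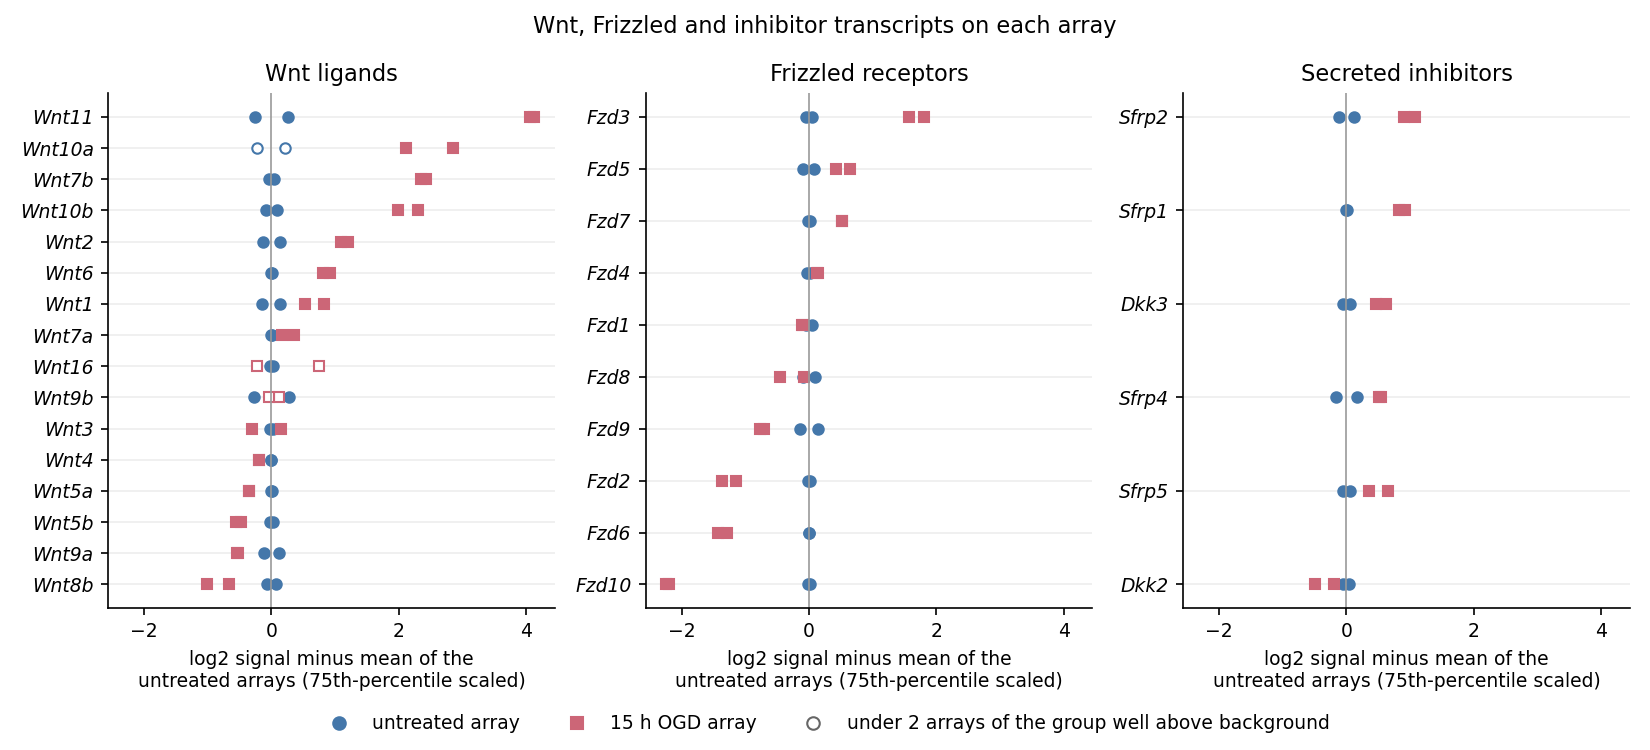
Each point is 1 array, and the horizontal axis is the normalized log2 signal minus the mean of the untreated arrays, for the brightest tested probe of each of the 32 tested members (circles untreated, squares OGD; open where fewer than 2 arrays of the group were well above background). On this 75th-percentile scale the OGD mean of *Wnt11* lay at 4.09 and that of *Fzd10* at -2.22. On the spike-in scale 5 members were called higher and 25 lower, or 23 lower without *Wnt16* and *Wnt9b*.

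Among the Wnt ligands, 16 of 19 were tested, of which 7 rose, 4 fell and 5 did not pass. For all genes the shares were 37.1% higher and 27.8% lower, and 3.84% and 83.3% on the spike-in scale. The median log2 fold change of the ligands was 0.26 on the 75th-percentile scale and -1.03 on the spike-in scale, where 4 were higher and 11 lower. Without *Wnt16* and *Wnt9b* the medians were 0.47 and -0.82, with 4 higher and 9 lower on the spike-in scale. On the 75th-percentile scale the largest change of any member was that of *Wnt11*, a ligand best known for signaling without beta-catenin in cell movement. The processed signal of its probe (chr7:106001985-106002045, mm9, plus strand) was 47.1 and 33.2 in untreated cultures and 272 and 250.0 after OGD. Both OGD arrays lay far above both untreated arrays even before scaling. Normalized log2 levels were -5.76 ± 0.37 (SD, n = 2) and -1.67 ± 0.050 (SD, n = 2), a log2 fold change of 4.09 ± 0.20 (SE) or 17.1-fold, with an adjusted p of 0.000944. Scaled on the spiked-in probes it was 2.81 ± 0.18 (SE), or 6.99-fold.

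*Wnt11* was the only member past the 10-fold limit of the methods, which 0.707% of all genes passed upward and 0.560% downward. With normexp background correction in place of the processed signal its log2 fold change was 3.07, and no member then passed 10-fold. With spike-in scaling the single member past that limit was *Fzd10*, 11.4-fold lower.

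The RefSeq promoter windows (GRCm38.p6, from 250 bases before to 50 after a start) of *Wnt11* and *Fzd10*, the members with the largest rise and the largest fall, are shown to let the regulatory sequence be read beside the values. Capitals mark the letters ACGTG, the core of a hypoxia response element, and CTTTGA, the core of a TCF/LEF site, searched on both strands. The first line is the more upstream of the 2 *Wnt11* windows, chr7:98834862-98835161 on the plus strand, and the second line is *Fzd10*, chr5:128600856-128601155 on the plus strand.
Wnt11: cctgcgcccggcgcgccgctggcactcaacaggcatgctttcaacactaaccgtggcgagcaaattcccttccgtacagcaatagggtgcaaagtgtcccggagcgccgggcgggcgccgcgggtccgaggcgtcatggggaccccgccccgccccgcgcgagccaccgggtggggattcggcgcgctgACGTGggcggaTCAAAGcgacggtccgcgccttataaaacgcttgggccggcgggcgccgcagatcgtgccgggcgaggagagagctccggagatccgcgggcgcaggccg
Fzd10: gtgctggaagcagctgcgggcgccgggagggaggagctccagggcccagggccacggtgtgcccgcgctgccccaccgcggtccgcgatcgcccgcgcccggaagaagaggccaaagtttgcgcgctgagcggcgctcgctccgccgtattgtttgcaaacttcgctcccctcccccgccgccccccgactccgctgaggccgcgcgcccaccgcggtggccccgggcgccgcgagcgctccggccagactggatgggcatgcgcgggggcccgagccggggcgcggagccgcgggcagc

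In the *Wnt11* window, ACGTG began at -61 from the start on the plus strand. CTTTGA lay on the minus strand, where the printed sequence reads TCAAAG with its first letter at -50, and the pair did not overlap. The other *Wnt11* window and the *Fzd10* window held neither. Of 28 windows for 25 members in the table, ACGTG occurred in those of 4 genes, *Fzd9*, *Wnt11*, *Wnt5b* and *Wnt9a*, and CTTTGA in those of 4, *Dkk1*, *Fzd1*, *Wnt11* and *Wnt5b*. Among all 32851 windows, 19.6% held ACGTG and 16.0% held CTTTGA. A match to such short letters is a description of the window and not a bound site.

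*Wnt7b*, a ligand of the beta-catenin branch with a role in brain vessels, had signals of 108 and 116 in untreated cultures and 237 and 218 after OGD (probe at chr15:85366896-85366955, mm9). The groups did not overlap before or after scaling. The mean normalized level was -4.26 ± 0.060 (SD, n = 2) in untreated and -1.87 ± 0.052 (SD, n = 2) in OGD cultures. This gave a log2 fold change of 2.39 ± 0.084 (SE) or 5.25-fold, with an adjusted p of 0.000743. It was 1.10 on the spike-in scale. Its close relative *Wnt7a* had signals of 1443 and 1476 before and 676 and 672 after OGD, and its log2 fold change of 0.26 did not pass the test (adjusted p = 0.0865).

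*Wnt10b* and *Wnt10a* are paralogs that act mainly through beta-catenin. For *Wnt10b* (probe at chr15:98602209-98602268, mm9) the signals were 26.8 and 24.0 in untreated cultures and 41.3 and 45.3 after OGD. Its log2 fold change was 2.15 ± 0.15 (SE), 4.43-fold, with an adjusted p of 0.00156, and 0.86 on the spike-in scale. For *Wnt10a* (probe at chr1:74850633-74850692, mm9) they were 6.94 and 9.52 in untreated cultures and 24.1 and 12.7 after OGD. Both OGD values were above both untreated values, but they differed between themselves and only 1 of 2 untreated arrays was well above background. The *Wnt10a* probe was thus tested only because of the OGD group, where it is high, and its log2 fold change of 2.48 ± 0.32 (SE, adjusted p = 0.00503) is given as a description. With normexp it was 1.51, and it was not called with the unmoderated test named in the methods (adjusted p = 0.0581). With the test limited to probes well above background on all 4 arrays, which leaves *Wnt10a* out, 14 members were higher and 8 lower.

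*Wnt2*, another ligand of the beta-catenin branch, was read at chr6:17938994-17939053 (mm9), with signals of 40.7 and 34.3 in untreated cultures and 35.6 and 28.8 after OGD. Unscaled signals overlapped, and normalized levels did not. The log2 fold change was 1.15 ± 0.13 (SE), 2.22-fold, with an adjusted p of 0.00367 on the 75th-percentile scale, and -0.14 on the spike-in scale, where it was not called. *Wnt6* (0.86) and *Wnt1* (0.68), the latter known for patterning the midbrain, were called higher with smaller log2 fold changes, which were -0.42 and -0.61 on the spike-in scale. The *Wnt6* probe was dim, with signals of 35.2 and 36.3 in untreated cultures and 27.8 and 22.7 after OGD. The *Wnt1* call was lost with the unmoderated test of the methods (adjusted p = 0.126). It came from a probe with signals of 119 and 99.5 in untreated cultures and 64.6 and 69.9 after OGD. The second *Wnt1* probe (2.18 and 2.12, then 2.14 and 2.49) was well above background on no array.

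The 4 ligands that fell did so by less than 2-fold on the 75th-percentile scale. They were lower by more on the spike-in scale, 3.48-fold for *Wnt5b*, 3.11-fold for *Wnt5a*, 3.54-fold for *Wnt9a* and 4.36-fold for *Wnt8b*. *Wnt5b* and *Wnt5a* are best known for the branches without beta-catenin. The *Wnt5b* signals were 13219 and 13922 in untreated cultures and 4023 and 3353 after OGD, with a log2 fold change of -0.51 ± 0.081 (SE) and an adjusted p of 0.00855. *Wnt5a* had signals of 5642 and 5757 and then 1846 and 1619, with a log2 fold change of -0.35 ± 0.074 (SE) and an adjusted p of 0.0191. *Wnt9a* (6349 and 5485, then 1672 and 1480) changed by -0.53 ± 0.11 (SE) on the log2 scale, with an adjusted p of 0.0181. *Wnt8b*, with signals of 58.3 and 65.5 and then 16.1 and 11.1, was at -0.83 (adjusted p = 0.0129), but at 0.52 with normexp background correction. The unmoderated test of the methods called neither *Wnt9a* (adjusted p = 0.0783) nor *Wnt8b* (adjusted p = 0.0819). The second *Wnt8b* probe (7.85 and 7.72, then 3.31 and 3.34) was well above background on 1 untreated array only.

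*Wnt16* and *Wnt9b* were well above background on both untreated arrays and on neither OGD array. The *Wnt16* signals were 19.6 and 19.3 in untreated cultures and 6.85 and 11.7 after OGD, and those of *Wnt9b* 25.7 and 17.9 and then 9.66 and 7.54. After scaling on the 75th percentile the OGD values of both genes were above the lowest value called well above background on each array, and their OGD means were above the untreated means, so no bound on a fall is given on that scale. On the spike-in scale the fitted levels were 2.04-fold lower for *Wnt16* and 2.37-fold lower for *Wnt9b*. These probes were tested only because of the untreated group, where they are high, so both values are given as a description. The second *Wnt16* probe (signals of 1.89 and 2.13, then 1.57 and 1.75) was well above background on no array. *Wnt3* (-0.08) and the brightest probe of *Wnt4* (-0.19) did not pass the test, and the latter was one of 2 probes that differed. *Wnt2b*, *Wnt3a* and *Wnt8a*, like the inhibitors *Dkk1* and *Dkk4*, were not well above background on any array, with signals from 1.44 to 8.66.

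All 10 Frizzled receptors were well above background on all 4 arrays. Of these, 3 rose, 4 fell and 3 did not pass, with a median log2 fold change of -0.18. Among all genes 37.1% were higher and 27.8% lower, with a median of 0.16. On the spike-in scale 1 receptor was higher and 9 lower with a median of -1.47, beside 83.3% lower and a median of -1.13 for all genes. *Fzd10* fell most. Its signals were 7779 and 8017 in untreated cultures and 689 and 622 after OGD (probe at chr5:129109798-129109857, mm9, plus strand). Both OGD arrays lay far below the untreated arrays before scaling. Normalized levels were 1.88 ± 0.017 (SD, n = 2) and -0.34 ± 0.031 (SD, n = 2), a log2 fold change of -2.22 ± 0.076 (SE), 4.66-fold lower, with an adjusted p of 0.000731. The spike-in scale gave -3.51.

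*Fzd6*, a receptor known from planar polarity and hair patterning, had signals of 1883 and 1924 and then 322 and 257 (probe at chr15:38869107-38869166, mm9). Its log2 fold change was -1.35 ± 0.089 (SE), 2.56-fold lower, with an adjusted p of 0.00139, and -2.64 on the spike-in scale. *Fzd2* was read by a bright probe at chr11:102467613-102467672 (mm9), with signals of 7858 and 7790 and then 1255 and 1276. That probe changed by -1.26 ± 0.11 (SE) on the log2 scale, 2.39-fold lower, with an adjusted p of 0.00213, and the other *Fzd2* probe by -1.88 (adjusted p = 0.000907), or by -1.13 with normexp. Groups did not overlap for either gene. *Fzd9* fell by less, with a log2 fold change of -0.74 (adjusted p = 0.0116), or -2.03 on the spike-in scale. It was not called with the unmoderated test of the methods (adjusted p = 0.0717).

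*Fzd3*, a receptor with a known role in axon guidance, moved the other way. Its signals were 3702 and 3525 in untreated cultures and 5229 and 3886 after OGD (probe at chr14:65854084-65854142, mm9). The OGD values lay above the untreated values already before scaling, though replicate 2 did so narrowly. The log2 fold change was 1.69 ± 0.12 (SE), 3.23-fold, with an adjusted p of 0.00150, and 0.40 ± 0.14 (SE) with an adjusted p of 0.0381 on the spike-in scale. *Fzd7* (0.52) and *Fzd5* (0.54) were called higher on the 75th-percentile scale and lower on the spike-in scale (-0.77 and -0.75). The *Fzd5* call was lost with the unmoderated test of the methods (adjusted p = 0.0969) and with the 75th percentile taken over probes well above background (adjusted p = 0.0625). *Fzd1*, with signals of 12846 and 12194 and then 4808 and 4230, was at -0.10 (adjusted p = 0.338). *Fzd4*, the receptor of norrin as well as of Wnt ligands, was at 0.14, and *Fzd8* at -0.27 had overlapping groups.

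The 6 tested inhibitors were well above background on all arrays. *Sfrp1*, *Sfrp2*, *Sfrp4*, *Sfrp5* and *Dkk3* were called higher, with a median of 0.53 over the 6, beside 37.1% higher and a median of 0.16 for all genes. The 6 had a median of -0.76 on the spike-in scale, with none called higher and 5 lower, beside 83.3% lower and a median of -1.13 for all genes. *Dkk3*, a divergent family member that is not a typical blocker of Lrp5 and Lrp6, had signals of 16038 and 15129 in untreated cultures and 8824 and 8619 after OGD. The unscaled signal was thus lower after OGD, and its log2 fold change was 0.54 ± 0.10 (SE) with an adjusted p of 0.0136 on the 75th-percentile scale against -0.75 on the spike-in scale. The *Dkk3* call was also lost with quantile normalization (0.13, adjusted p = 0.327) and with the unmoderated test of the methods (adjusted p = 0.0598). *Sfrp1* had signals of 2432 and 2419 and then 1767 and 1650, with a log2 fold change of 0.87 ± 0.082 (SE), an adjusted p of 0.00256 and -0.42 on the spike-in scale. *Sfrp2* was at 0.99, *Sfrp4* at 0.53 and *Sfrp5* at 0.51, and on the spike-in scale these were -0.30 (not called), -0.76 and -0.78. The *Sfrp2* probe was dim, with signals of 32.3 and 27.9 and then 23.2 and 22.9. The unmoderated test of the methods did not call *Sfrp4* (adjusted p = 0.135) or *Sfrp5* (adjusted p = 0.129). *Dkk2* was at -0.35 and did not pass (adjusted p = 0.0931).

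**Figure D2:**
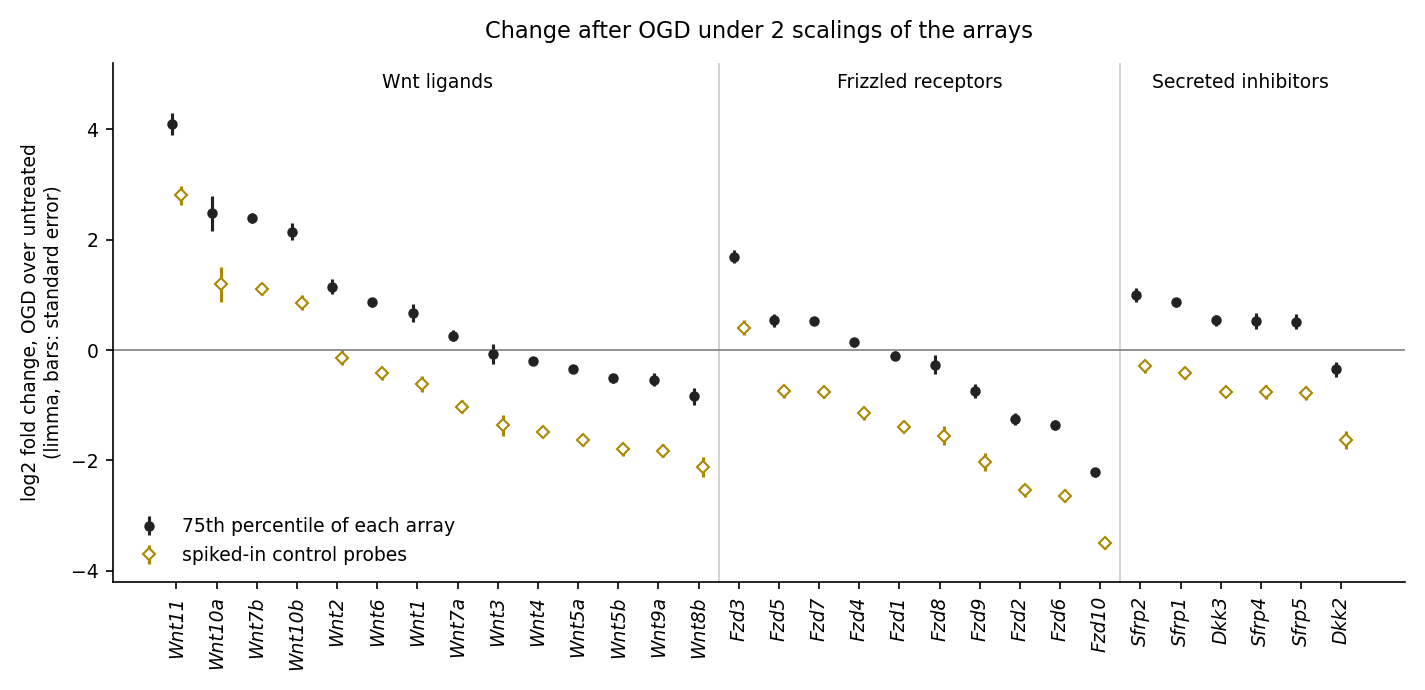
The vertical axis is the log2 fold change of OGD over untreated arrays for the 30 tested members well above background on at least 1 array of each group, with the standard error of limma as bars, scaled on the 75th percentile (filled circles) or on the spiked-in control probes (open diamonds). Moving from the first scale to the second lowers every member by about the shift of all genes (-1.29), so that *Wnt11*, *Wnt10a*, *Wnt7b*, *Wnt10b* and *Fzd3* are left above 0.

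For 4 members, 2 probes passed the filter, and these were compared after their values had been seen. The difference between probes on the same array does not depend on how arrays are scaled. For *Wnt4*, a ligand of both branches, the upstream probe (chr4:136851690-136852258, mm9, a span longer than the probe) had signals of 153 and 166 in untreated cultures and 409 and 355 after OGD. The downstream probe (chr4:136855342-136855401), which starts 3652 bases further, had 1233 and 1252 and then 448 and 393. The upstream probe thus rose by 2.63 ± 0.083 (SE) on the log2 scale (adjusted p = 0.000731, and 1.34 on the spike-in scale), and the downstream probe was at -0.19 ± 0.074 (SE) (adjusted p = 0.0871). Upstream minus downstream, the log2 difference went from -2.96 ± 0.072 (SD, n = 2) to -0.14 ± 0.011 (SD, n = 2), a change of 2.82, or 7.08-fold.

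*Fzd5*, *Fzd2* and *Fzd7* showed smaller differences between probes. The upstream *Fzd5* probe (chr1:64781972-64782030, minus strand) had signals of 86.3 and 92.5 and then 120 and 112, a log2 fold change of 1.75 (adjusted p = 0.000930, and 0.46 on the spike-in scale), beside 0.54 for the downstream probe. Upstream minus downstream, the log2 difference changed by 1.21 for *Fzd5*, by 0.62 for *Fzd2* and by -0.31 for *Fzd7*. With normexp background correction the signs of *Fzd2* (-0.12) and *Fzd7* (0.27) turned, and those of *Wnt4* (2.47) and *Fzd5* (0.93) did not. The probe difference was also fitted with limma over all 4278 genes with exactly 2 tested probes, of which 41.7% were called in either direction. The adjusted p was 0.000674 for *Wnt4*, 0.00466 for *Fzd5*, 0.0266 for *Fzd2* and 0.126 for *Fzd7*, and the *Fzd2* call was lost with normexp (adjusted p = 0.358) and without untreated replicate 1 or 2. Groups did not overlap for these 4 members, as for 76.3% of such genes. Which transcripts the probes share was not tested.

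**Figure D3:**
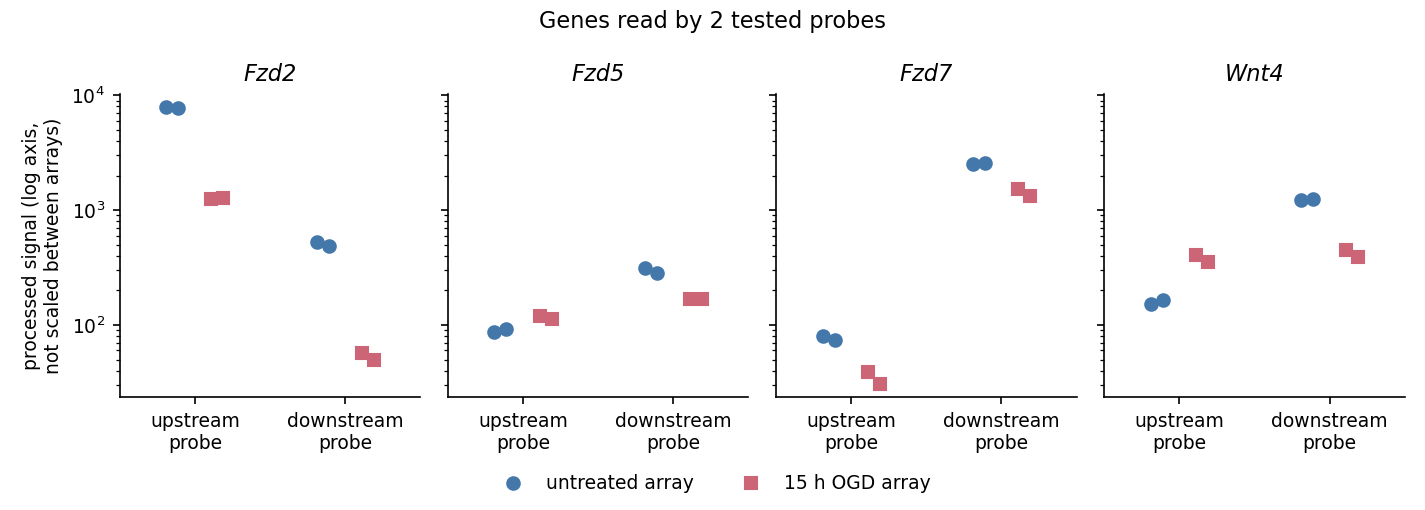
Processed signal on a log axis, not scaled between arrays, for the upstream and the downstream probe of the 4 members with 2 tested probes (circles untreated arrays, squares OGD arrays). The upstream *Wnt4* probe goes from 153 and 166 to 409 and 355 while the downstream probe goes from 1233 and 1252 to 448 and 393.

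Genes that act around the members were then examined from 7 lists with 69 genes, of which 65 were tested. Of these, 21 rose, 22 fell and 22 did not pass, with a median log2 fold change of 0.028, and on the spike-in scale 4 were higher (*Myc*, *Prickle2*, *Jun* and *Dvl3*) and 57 lower. These shares were not far from those of all genes. Without untreated replicate 1 or 2, 10 and 9 genes were higher in place of 21. Over 2-fold, 7 rose and 14 fell, beside 12.7% and 15.0% of all genes. For the counts of each list below, the shares of all genes were 37.1% higher and 27.8% lower. On the spike-in scale they were 3.84% and 83.3%.

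Of 7 tested receptor partners 4 rose and 2 fell. *Lrp6*, a co-receptor of the beta-catenin branch, was at 0.67 (adjusted p = 0.00583; second probe 1.75) and *Lrp5* at 0.35 (adjusted p = 0.0241), and on the spike-in scale both were lower (-0.61 and -0.93). *Ptk7*, a planar polarity co-receptor, rose by 1.01 and was at -0.28 (not called) on the spike-in scale, and *Ror1*, a receptor of *Wnt5a*, was at -1.07, while the second *Ror1* probe was at -0.02 and did not pass. On the spike-in scale none of these partners was called higher with its brightest probe and 6 were lower.

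*Wls*, which carries Wnt proteins to the cell surface, was at 0.71 (adjusted p = 0.00403) on the 75th-percentile scale and was called lower, at -0.58 (adjusted p = 0.00532), on the spike-in scale. *Porcn*, which attaches their lipid, was at -0.14 on the former and did not pass. Of 9 other secreted modulators tested 1 rose and 1 fell. The one that fell was *Ndp*, which encodes norrin, the ligand of *Fzd4* made by astrocytes, with signals of 5220 and 5672 in untreated cultures and 486 and 512 after OGD. Its log2 fold change was -2.08 ± 0.13 (SE), 4.21-fold lower, with an adjusted p of 0.00124, and -3.36 on the spike-in scale. Of 5 genes of receptor turnover 1 rose and 3 fell, among them *Lgr6*, an R-spondin receptor, at -1.11, whose second probe was at 0.13 and did not pass.

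In the intracellular beta-catenin branch 9 of 24 genes rose and 7 fell, and on the spike-in scale 1 was higher and 21 lower. These counts use the brightest probe, and for some genes the probes differed. *Dvl2* was called higher (0.34) and its second probe lower (-0.63). *Tle4* was called lower (-0.44) and its second probe higher (1.61). *Gsk3b* was at -0.05 (not called) with its brightest probe and at 0.86 and -1.47 with the others. *Ctnnb1*, which encodes beta-catenin itself, was at 0.41 (adjusted p = 0.0145) and at -0.88 on the spike-in scale. The Dishevelled gene *Dvl3* rose by 1.83 on the log2 scale, and by 0.54 on the spike-in scale. *Pygo1* rose by 1.49 and the scaffold gene *Axin1* by 1.01, but on the spike-in scale they were at 0.20 and -0.28 and neither was called. The destruction-complex relative *Apc2* was at -2.80 (6.96-fold lower), the nuclear cofactors *Pygo2* and *Bcl9* at -2.12 and -1.88, and the repressor *Tcf7l1* at -1.01. Among 16 target and feedback genes of beta-catenin 5 rose, 4 fell and 7 did not pass. *Myc* rose 11.5-fold, with signals of 1331 and 1390 in untreated cultures and 6136 and 5937 after OGD, and *Jun* rose 3.65-fold, which was 4.71-fold and 1.49-fold on the spike-in scale, while the feedback gene *Axin2* was at -1.42 (adjusted p = 0.0117) and *Tnfrsf19* at -1.31. *Myc* and *Jun* also respond to many other signals, and the second probes of *Axin2* (0.066) and *Tnfrsf19* (-0.086) did not pass the test.

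In the planar polarity list 7 of 9 genes fell and 1 rose, with a median log2 fold change of -1.26, beside 27.8% lower, 37.1% higher and a median of 0.16 for all genes. *Vangl1*, a core membrane protein of the polarity complex, had signals of 7473 and 7167 in untreated cultures and 243 and 173 after OGD. Its log2 fold change was -3.78 ± 0.13 (SE), 13.8-fold lower, with an adjusted p of 0.000752, and the second *Vangl1* probe was at -1.41. The cadherins *Celsr1*, *Celsr2* and *Celsr3* were at -1.26, -1.62 and -1.26, the Dishevelled-binding *Daam1* was at -1.70, and *Prickle2* rose by 2.22. The brightest *Vangl2* probe was at 0.24 and did not pass, another was at 0.044 and did not pass, and the last was at -1.47 (adjusted p = 0.00121). The second *Celsr2* probe was at -0.07 and did not pass. On the spike-in scale, where 83.3% of all genes were lower, 8 of the 9 were lower and *Prickle2* was higher.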

How the data were processed

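RNA of 2 untreated and 2 OGD cultures had been hybridized to single-color arrays, and the authors deposited the intensity of each spot as the processed signal of Agilent Feature Extraction 11.5.1.1 (version per the submitters' processing notes), with background subtracted and no scaling between arrays. The deposited table of the series holds the same values (largest difference 0). Each array had 43020 non-control spots for 39429 probes. The files place probes on mm9, and member symbols matched RefSeq for 44 of 44 probe accessions. Positions in exons or introns were not determined here.

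Log2 of the processed signal was taken, outlier spots were left out, spots of a probe were averaged, and each array's 75th percentile was subtracted, as the methods state. The test was run on 28254 probes, those well above background throughout 1 group or both, in limma 3.58.1 (lmFit, eBayes; R 4.3.3), two-sided, with Benjamini-Hochberg adjustment over all of them. A gene stood for its brightest tested probe. The difference between the probes of a gene with exactly 2 tested probes was fitted in the same way, a step chosen after seeing the data. The steps were tested on simulated data. Tables and figures used Python 3.11.15, pandas 2.3.3, numpy 2.4.6 and matplotlib 3.10.9. Arrays have no depth in reads, and the number of arrays limits the precision.

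Values per array were given for members past adjusted p under 0.05 and over 2-fold. They were also given for members well above background in 1 group only and for up to 6 others in order of signal. Some more were singled out after their values had been seen (*Wnt7a*, *Wnt8b*, *Wnt6*, *Wnt1*, *Sfrp2*, the second probes, *Ndp*, *Myc* and *Vangl1*). Alternatives were the t-test of the methods, limma with an intensity trend, a replicate block, normexp (offset 50), quantile, median, spike-in and well-above-background scaling, other filters, the series table, arrays left out in turn, probe means and fold limits. The members and lists were chosen with earlier results of these data known.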

Additional observations from a re-analysis of the deposited data

How the results depend on the processing

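*Wnt11*, *Wnt7b*, *Wnt10b*, *Wnt2*, *Wnt6*, *Fzd3*, *Fzd10*, *Fzd6*, *Fzd2*, *Sfrp1* and *Sfrp2* kept their direction and passed the threshold in all 17 settings other than spike-in scaling, the main one included. The counts of members higher (15) and lower (8) became 9 higher with the t-test of the methods and 6 higher and 3 lower with a 2-fold limit. With spike-in scaling they were 5 higher and 25 lower, or 23 lower without *Wnt16* and *Wnt9b*. Leaving out 1 array in turn gave 9 to 16 higher, 4 to 9 lower and 1 to 1 past 10-fold, a count that was 0 with normexp. Pathway genes higher (21) and lower (22) became 4 and 57 with spike-in scaling and 7 and 14 with a 2-fold limit, and ranged from 9 to 23 and from 15 to 23 with 1 array left out.

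Signs turned with spike-in scaling for *Dkk3* (-0.75), *Fzd4* (-1.15), *Fzd5* (-0.75), *Fzd7* (-0.77, other probe -1.08), *Sfrp1* (-0.42), *Sfrp2* (-0.30), *Sfrp4* (-0.76), *Sfrp5* (-0.78), *Wnt1* (-0.61), *Wnt2* (-0.14), *Wnt6* (-0.42) and *Wnt7a* (-1.03). They turned with normexp for *Dkk2* (0.17), *Wnt3* (0.26) and *Wnt8b* (0.52), with quantile normalization for *Wnt3* (0.016), with the 75th percentile over well-above-background probes for *Fzd4* (-0.014), and with the mean over probes for *Wnt4* (1.22). With 1 array left out, *Wnt3* ranged from -0.30 to 0.15, the sign turning without OGD replicate 2. No fold change of *Wnt16* or *Wnt9b* was compared between settings. Calls were lost with quantile normalization for *Dkk3*, with the t-test of the methods for *Dkk3*, *Fzd5*, *Fzd9*, *Sfrp4*, *Sfrp5*, *Wnt1*, *Wnt8b*, *Wnt9a* and *Wnt10a*, with the 75th percentile over well-above-background probes for *Fzd5*, *Sfrp4*, *Sfrp5* and *Wnt1*, and without the filter for *Sfrp4* and *Sfrp5*. Some calls were gained, among them *Fzd1* with quantile normalization (-0.38, limma adjusted p = 0.0209). *Dkk2* was called with the 75th percentile over well-above-background probes (-0.50, limma adjusted p = 0.0345). The median of all genes moved by 0.35 with normexp, by -0.19 with quantile normalization and by -0.15 with the 75th percentile over well-above-background probes. The causes were not tested.

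The change in probe difference, fitted after the data had been seen, turned with normexp for *Fzd2* (-0.12) and *Fzd7* (0.27).

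The replicate numbers did not pair the samples (correlation of same-numbered deviations -0.057). With them as a replicate block, 12 members were higher and 7 lower, 1 passed 10-fold, and *Fzd5*, *Sfrp5*, *Wnt1* and *Wnt5a* were no longer called, with 18 pathway genes higher and 22 lower. Dim probes near background limit what can be said of *Wnt10a*, *Wnt16*, *Wnt9b* and *Wnt8b*. The probes of *Wnt6*, *Sfrp2*, *Wnt10b* and *Wnt2* were dim too, though well above background on all arrays.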
